A study of Mus musculus with 24 samples.

Results

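The 10 genes examined here were Ddit4, Ddit4l, Sesn2, Tsc1, Tsc2, Rheb, Mtor, Rptor, Eif4ebp1 and Rps6kb1, which encode the core of the growth-controlling kinase complex mTORC1, its regulators and its direct targets. They were found by gene name, from a list drawn up because ZBTB16 has been linked to restraint of mTORC1 through Ddit4. All 10 were found among the 23177 genes of the Zbtb16 table and the 21688 genes of the Sox3 table, and all 10 passed the filter on low values. RNA was sequenced from spermatogonia of mice at postnatal day 7 (P7), purified with magnetic beads into a THY1+ fraction (undifferentiated spermatogonia, uSPG) and a KIT+ fraction (differentiating spermatogonia, dSPG). In the Zbtb16 table, null mice homozygous for the luxoid allele (Zbtb16lu/lu) were set against WT littermates. In the Sox3 table, Sox3 conditional knockout (cKO) mice, in which a Cre driven from Ddx4 deletes floxed Sox3 in germ cells, were set against their WT littermates. All mice were on the C57BL/6J background, the testes of 3 mice were pooled for each isolation, and each of the 8 groups held 3 libraries, 24 in all.

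mTORC1 is a protein kinase assembled around MTOR and its substrate-binding subunit RPTOR, and it drives protein synthesis and cell growth when nutrients and growth factors are present. Growth factor signals reach it through the small GTPase RHEB, which the TSC1 and TSC2 complex switches off, while DDIT4 (REDD1), its paralog DDIT4L and SESN2 are stress-induced proteins that restrain the pathway. Once active, the complex phosphorylates EIF4EBP1, a repressor of cap-dependent translation, and RPS6KB1 (S6 kinase). In the testis, ZBTB16 has been described as holding mTORC1 activity down in undifferentiated spermatogonia. These genes are largely regulated as proteins, by phosphorylation and degradation, and only their RNA was measured here.

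Ddit4 (ENSMUSG00000020108) lies on chromosome 10, from 59949669 to 59951834 on the minus strand of mm10 (GRCm38), Ddit4l (ENSMUSG00000046818) on chromosome 3 from 137621612 to 137628333 on the plus strand, and Sesn2 (ENSMUSG00000028893) on chromosome 4 from 132492032 to 132510501 on the minus strand. Their promoters are shown because these stress-induced inhibitors gave the largest differences between the Zbtb16 genotypes in THY1+ uSPG. The sequences are those of RefSeq for GRCm38.p6, read 5′ to 3′ on the gene's own strand, from 250 bases before the annotated start and ending before any exon of the GENCODE annotation. Capitals mark every match, on either strand, to 4 motifs, namely TATAAA (the TATA box), CCAAT (the site of the factor NF-Y), GGGCGG (the GC box) and ACGTG (the core of the hypoxia response element). The Ddit4l window lies in an intron of the longer GENCODE model of that gene.
Ddit4 (chr10:59951835-59952020, minus strand, 186 bases): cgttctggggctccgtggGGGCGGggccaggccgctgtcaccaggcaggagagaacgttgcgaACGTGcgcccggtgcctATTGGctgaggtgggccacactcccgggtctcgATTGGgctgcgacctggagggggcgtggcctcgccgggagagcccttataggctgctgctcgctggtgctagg
Ddit4l (chr3:137623422-137623671, plus strand, 250 bases): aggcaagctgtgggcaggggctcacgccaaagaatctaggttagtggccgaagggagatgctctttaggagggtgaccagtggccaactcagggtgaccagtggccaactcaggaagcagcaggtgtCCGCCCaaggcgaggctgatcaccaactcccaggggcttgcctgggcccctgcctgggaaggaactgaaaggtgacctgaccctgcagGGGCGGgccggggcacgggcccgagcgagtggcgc
Sesn2 (chr4:132510502-132510706, minus strand, 205 bases): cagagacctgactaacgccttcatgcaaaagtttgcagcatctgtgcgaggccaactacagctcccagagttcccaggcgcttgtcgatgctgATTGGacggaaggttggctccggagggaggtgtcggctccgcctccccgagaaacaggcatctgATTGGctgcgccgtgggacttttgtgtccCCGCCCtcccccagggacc

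Among the 250 bases before the start, Ddit4 and Sesn2 each held 2 matches to CCAAT, both on the reverse strand, and 1 to GGGCGG, and Ddit4 also held 1 match to ACGTG. Ddit4l held 2 matches to GGGCGG and none to CCAAT or ACGTG. Over the 32851 promoters of the same length, 33.8% held CCAAT, 32.7% GGGCGG, 16.6% ACGTG and 12.4% TATAAA, which was in none of the 9 member promoters that could be read. Of the remaining members, Mtor held 4 matches to CCAAT and 2 to GGGCGG, Rheb 2 to ACGTG and 1 to GGGCGG, and Rptor 1 to ACGTG, whereas Tsc1, Tsc2 and Rps6kb1 held none of the 4 motifs. The pair of ACGTG matches in Rheb overlap on opposite strands. These matches describe letters only.

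Estimated depth was 26.0 to 35.2 M reads per library in the Zbtb16 table and 11.02 to 31.9 M in the Sox3 table. In the Sox3 table replicate 1 of every group had 28.3 to 31.9 M reads, and replicates 2 and 3 had 11.02 to 14.9 M. A single member received 143 to 9161 reads in the Zbtb16 table and 85.4 to 7697 reads in the Sox3 table. Levels are given in FPKM, which is scaled to transcript length and library size. Zbtb16 itself was at 42.0 to 58.7 FPKM in WT THY1+ uSPG and at 15.6 to 18.2 FPKM in null THY1+ uSPG, so transcript remained in the null, and Sox3 was at most 0.0820 FPKM in cKO libraries. In the Sox3 table the sorting markers went against the labels of the WT libraries: Thy1 was at 3.59 to 4.06 FPKM in WT libraries labelled KIT+ and at 0.213 to 0.254 FPKM in those labelled THY1+. Both fractions carried RNA of somatic cells, with summed macrophage markers at 770 to 867 FPKM in WT THY1+ and 5.83 to 7.70 FPKM in WT KIT+ libraries, and summed Leydig cell markers at 83.1 to 119 FPKM and 1215 to 2272 FPKM. Fewer cells of a type and less RNA per cell cannot be told apart in such bulk libraries.

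Loss of Zbtb16 in THY1+ uSPG was the comparison that bears on the link between ZBTB16 and mTORC1. Ddit4 showed the largest difference of the 10 genes. In the 3 WT THY1+ libraries it was at 14.5, 8.77 and 7.76 FPKM, and in the 3 null THY1+ libraries at 4.28, 5.22 and 2.78 FPKM. The groups did not overlap, and the highest null library lay below the lowest WT library. The means were 10.3 ± 3.63 and 4.09 ± 1.23 FPKM (SD, n = 3 each), a fitted difference of -1.31 on the log2 scale of FPKM + 0.1 (SE 0.37, 95% confidence interval -2.12 to -0.49), or 2.48-fold lower in the null. The adjusted p of limma was 0.0668, so Ddit4 missed the threshold for a call, set at an adjusted p up to 0.05 together with 1.5-fold or more. Ddit4 was the 1 member of 10 whose groups did not overlap, where 29.5% of all 22374 genes tested showed no overlap. Without WT THY1+ replicate 1, the library with the highest level, the difference was -1.04 and the adjusted p 0.231. With the replicate number added to the fit as a block, Ddit4 was called (adjusted p of limma 0.00797), as were 1980 of all 22374 genes.

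**Figure D1:**
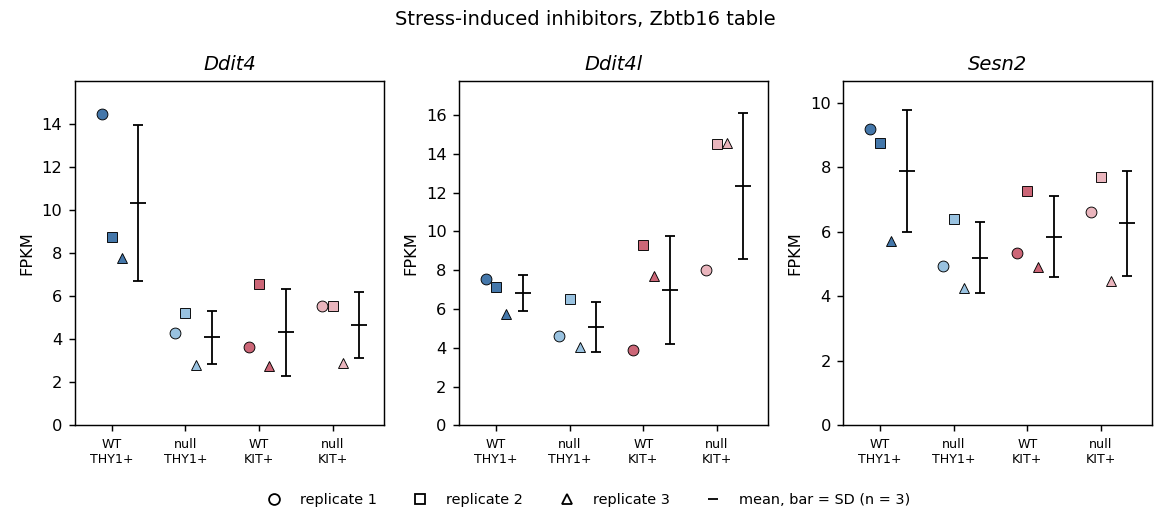
FPKM (y axis, from 0) of Ddit4, Ddit4l and Sesn2 in the 4 groups of the Zbtb16 table, with 1 symbol per library and the mean ± SD beside it. The 3 WT THY1+ libraries have the highest Ddit4, from 7.76 to 14.5 FPKM, and the null KIT+ libraries have the highest mean of Ddit4l, 12.4 FPKM.

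Sesn2, a leucine sensor that binds the GATOR2 complex, was at 9.19, 8.74 and 5.70 FPKM in WT THY1+ uSPG and at 4.94, 6.40 and 4.25 FPKM in null THY1+ uSPG. Most null libraries lay below the WT range but the groups overlapped, and the fitted difference was -0.58 on the log2 scale (SE 0.25), with an adjusted p of limma of 0.187. Ddit4l was at 7.56, 7.12 and 5.75 FPKM in WT and at 4.59, 6.50 and 4.06 FPKM in the null, with overlapping groups and a difference of -0.44 (SE 0.32, adjusted p of limma 0.425). All 3 stress-induced inhibitors thus had lower means in the null, and none passed the test without the replicate block. With the block Ddit4 was called, and Sesn2 and Ddit4l were not. Of all 10 members, 7 had a negative fitted difference.

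The other members differed less. Eif4ebp1 was at 46.7, 48.0 and 65.9 FPKM in WT THY1+ uSPG and at 70.8, 60.2 and 77.9 FPKM in the null, and its groups overlapped by the third WT library alone. Its difference was 0.39 on the log2 scale (SE 0.18) with an adjusted p of limma of 0.22. For Tsc1, Tsc2, Rheb, Mtor, Rptor and Rps6kb1 the fitted log2 differences lay between -0.27 for Rptor and 0.05 for Rheb, with adjusted p of limma from 0.398 to 0.908, and the 95% confidence interval for Tsc1 was -0.20 to 0.27. In all, 0 of the 10 members were called, where 3.98% of all genes were, and 2 of the 10 had an unadjusted p under 0.05, where 23.8% of all genes did. The median difference of the members was -0.15 on the log2 scale, beside -0.03 for all genes.

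Markers of other cell types moved with this comparison. All 7 macrophage markers tested of a list of 8 were lower in the null, with sums of 356 to 675 FPKM against 770 to 867 FPKM in WT. All 6 Leydig cell markers were lower, with sums of 49.8 to 79.6 FPKM against 83.1 to 119 FPKM, and all 5 markers of germ cells were higher, with sums of 987 to 1281 FPKM against 855 to 1031 FPKM. Sertoli cell, peritubular and stromal, and endothelial markers had medians of -0.58, -0.58 and -0.55 on the log2 scale with no call, and T cell markers -0.17. Markers of undifferentiated and of differentiating spermatogonia had medians of -0.03 and -0.07 with no call. The part of these cells in the lower Ddit4 and Sesn2 was not tested.

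In KIT+ dSPG the largest difference between null and WT was that of Ddit4l, and no member passed the test. Ddit4 was at 3.62, 6.58 and 2.75 FPKM in WT and at 5.56, 5.54 and 2.90 FPKM in the null, with overlapping groups and a log2 difference of 0.14 (SE 0.37, 95% confidence interval -0.67 to 0.96). Ddit4l was at 3.90, 9.32 and 7.71 FPKM in WT and at 8.01, 14.5 and 14.6 FPKM in the null. Both higher null libraries lay above every WT library, but the lowest null library was within the WT range. The difference was 0.85 on the log2 scale (SE 0.32, 1.81-fold), with an unadjusted p of 0.022 and an adjusted p of limma of 0.229. No member was called (0 of 10, where 0.259% of all genes were), and the 8 members other than Ddit4 and Ddit4l had differences between -0.15 and 0.08. All 6 Leydig cell markers were also higher in null KIT+ libraries, at sums of 2045 to 3122 FPKM against 1215 to 2272 FPKM, with a median log2 difference of 0.60. All 5 endothelial markers (median 0.65), 5 of 6 peritubular and stromal markers (0.58) and 4 of 6 Sertoli cell markers (0.35) were higher too, and markers of differentiating spermatogonia summed to 228 to 262 FPKM against 305 to 317 FPKM (median -0.24). None of these markers was called, and their part in the Ddit4l level was not tested.

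**Figure D2:**
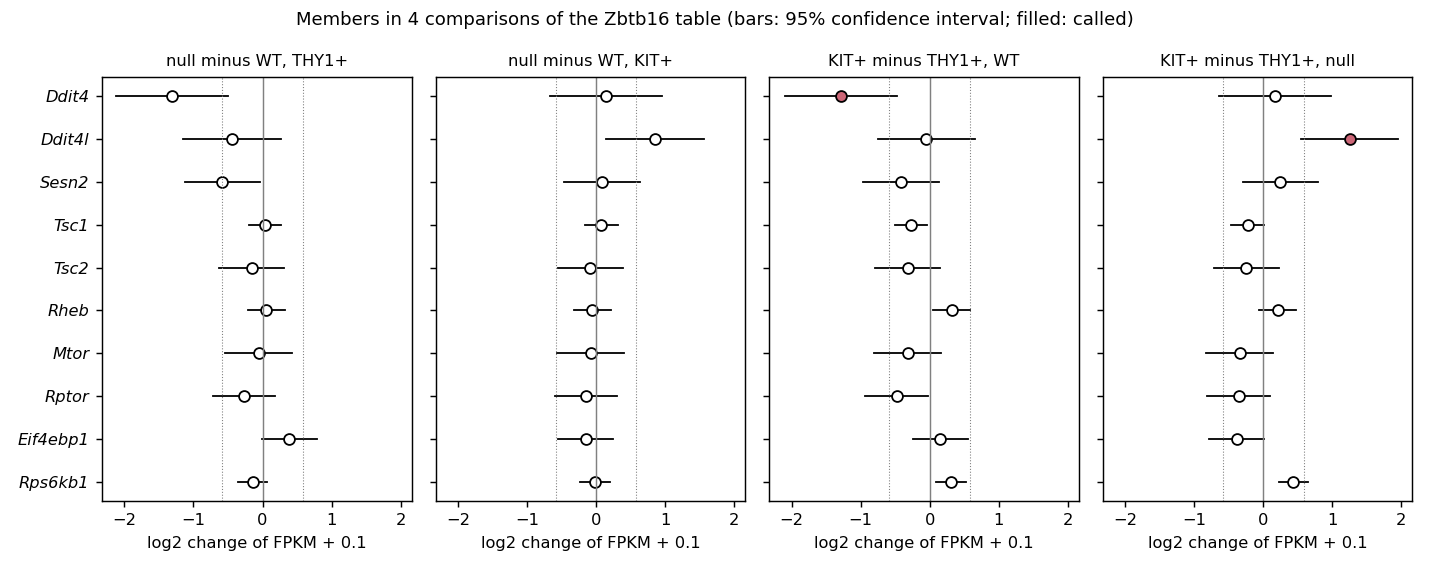
Fitted log2 differences of FPKM + 0.1 (x axis) for the 10 members in 4 comparisons of the Zbtb16 table, with 95% confidence intervals as bars, filled symbols for calls and dotted lines at 1.5-fold. Ddit4 is at -1.31 in null THY1+ uSPG and at -1.28 between the fractions of WT mice, and Ddit4l is at 1.25 between the fractions of null mice.

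The step from THY1+ to KIT+ cells was then compared within each genotype. In WT mice Ddit4 fell by 1.28 on the log2 scale (SE 0.37, 2.43-fold lower, adjusted p of limma 0.0232), from 10.3 ± 3.63 to 4.32 ± 2.005 FPKM, and its groups did not overlap. This was the 1 call of 10 members, where 21.2% of all genes were called. Ddit4 lost the call without WT KIT+ replicate 1 (adjusted p 0.0716), without WT KIT+ replicate 3 (0.0951) or without WT THY1+ replicate 1 (0.0959). For Ddit4l the fractions of WT mice overlapped, with means of 6.81 ± 0.94 and 6.97 ± 2.78 FPKM and a log2 difference of -0.05 (SE 0.32). The macrophage and Leydig cell markers differed between these fractions as given above, and their part in the Ddit4 fall was not tested.

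In null mice Ddit4l, and not Ddit4, was called between the fractions. Ddit4 was at 4.09 ± 1.23 FPKM in THY1+ and 4.67 ± 1.53 FPKM in KIT+ cells, a log2 difference of 0.17 (SE 0.37, adjusted p of limma 0.751). Ddit4l rose from 5.05 ± 1.29 to 12.4 ± 3.77 FPKM, a log2 change of 1.25 (SE 0.32, 2.38-fold, adjusted p of limma 0.00935), with every KIT+ library above every THY1+ library. It was the 1 member of 10 called in null mice, where 29.2% of all genes were. Ddit4l remained called under every alternative tried. Leydig cell markers summed to 2045 to 3122 FPKM in null KIT+ and 49.8 to 79.6 FPKM in null THY1+ libraries (6 of 6 called higher). Sertoli cell markers summed to 98.8 to 129 and 16.3 to 21.4 FPKM (4 of 6 called higher, 1 lower). Macrophage markers summed to 5.78 to 14.6 and 356 to 675 FPKM (7 of 7 called lower). The part of these cells in the Ddit4l rise was not tested.

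The difference between the genotypes in this step was tested as an interaction, the null effect in KIT+ cells less that in THY1+ cells. It was 1.45 for Ddit4 (SE 0.52, unadjusted p 0.0178, adjusted p of limma 0.148), 1.30 for Ddit4l (SE 0.46, unadjusted p 0.0154, adjusted p 0.143) and 0.66 for Sesn2 (SE 0.35, adjusted p 0.286), all on the log2 scale. No member was called (0 of 10, where 0.0313% of all genes were), and 2 of the 10 had an unadjusted p under 0.05, where 22.4% of all genes did. With the replicate block Ddit4, Ddit4l and Sesn2 were called, among 2756 genes called in all. The interaction, both fraction comparisons and both genotype comparisons share libraries.

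Rps6kb1 separated the fractions in both genotypes. In WT mice it was at 9.22, 9.36 and 9.69 FPKM in THY1+ and at 12.3, 11.04 and 11.8 FPKM in KIT+ cells, and in null mice at 8.48, 7.69 and 9.50 FPKM in THY1+ and at 11.8, 10.8 and 12.2 FPKM in KIT+ cells. The fractions did not overlap in either genotype. The log2 difference was 0.31 in WT (SE 0.10, adjusted p of limma 0.0321) and 0.44 in null mice (SE 0.10, adjusted p 0.00414), below the 1.5-fold needed for a call. Rheb was likewise higher in KIT+ cells of WT mice, at 14.9 to 16.9 FPKM against 12.2 to 14.2 FPKM, with no overlap, a difference of 0.32 (SE 0.12) and an adjusted p of limma of 0.0696.

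Both TSC subunits and both mTORC1 subunits had lower means in KIT+ cells. Tsc1 was at 6.08 to 7.35 FPKM in WT THY1+ and 5.31 to 5.91 FPKM in WT KIT+ cells, with no overlap and a difference of -0.27 (SE 0.11, adjusted p of limma 0.0812). Tsc2 was at 20.2 to 30.3 FPKM and 17.3 to 25.0 FPKM, and Mtor at 19.2 to 30.2 FPKM and 17.4 to 24.2 FPKM, each with overlapping groups and a difference of -0.32 (SE 0.22). Rptor was at 5.20 to 7.68 FPKM and 4.14 to 5.43 FPKM, a difference of -0.48 (SE 0.21, adjusted p of limma 0.106). Across both genotypes, 4 of 10 members in WT and 3 of 10 in null mice showed no overlap between the fractions, where 42.7% and 48.6% of all genes did. The part of somatic cells in the fraction differences of these members was not tested.

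**Figure D3:**
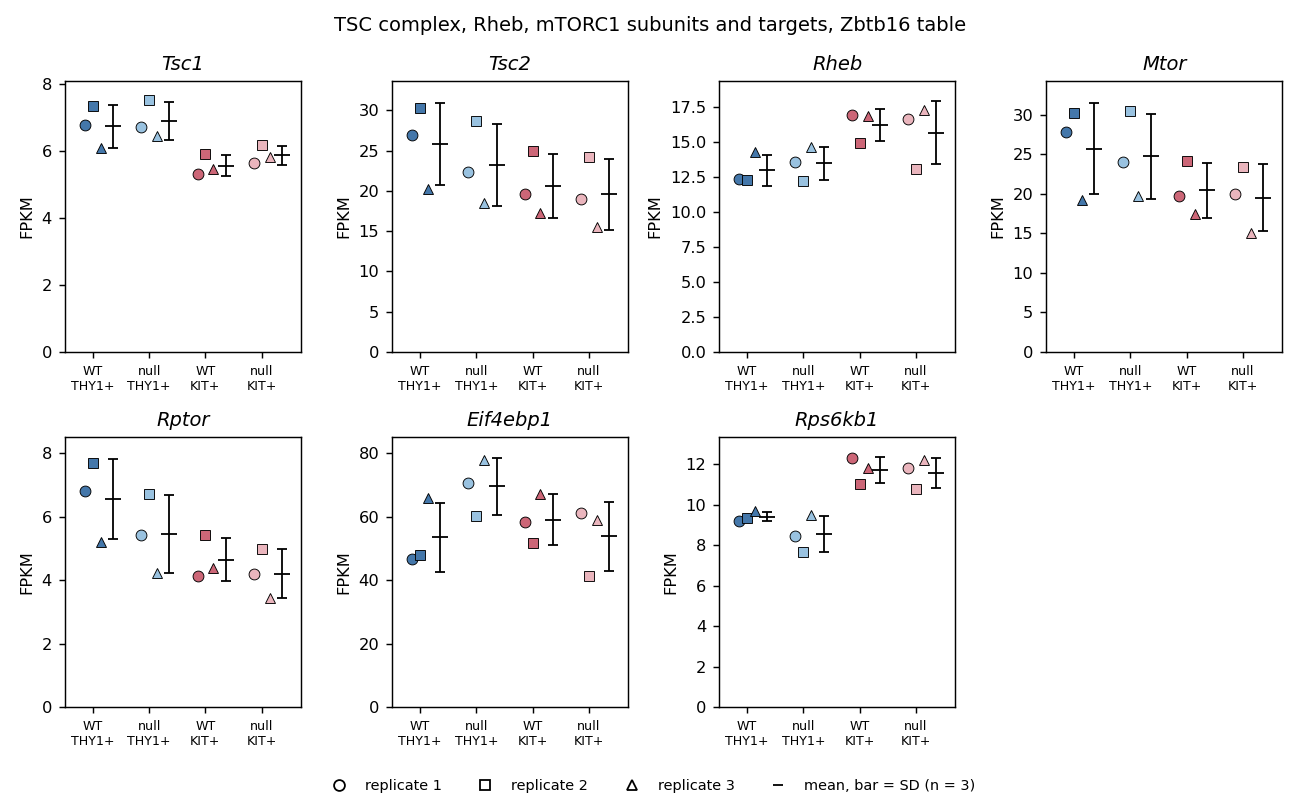
FPKM (y axes, from 0) of the TSC subunits, Rheb, the mTORC1 subunits and the targets Eif4ebp1 and Rps6kb1 in the 4 groups of the Zbtb16 table, with 1 symbol per library and the mean ± SD beside it. Rps6kb1 lies at 7.69 to 9.69 FPKM in all THY1+ and 10.8 to 12.3 FPKM in all KIT+ libraries, and replicate 2 is the highest library of each group for Tsc1, Tsc2, Mtor and Rptor.

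In WT THY1+ uSPG Eif4ebp1 was the most abundant member at 53.5 ± 10.8 FPKM, followed by Tsc2 at 25.8 ± 5.14 FPKM and Mtor at 25.7 ± 5.78 FPKM, which did not differ beyond their spread. Rheb followed at 12.9 ± 1.11 FPKM, with Ddit4 at 10.3 ± 3.63 FPKM and Rps6kb1 at 9.42 ± 0.24 FPKM within their spread of each other. Sesn2, Ddit4l, Tsc1 and Rptor had the lowest means, from 7.88 ± 1.90 to 6.56 ± 1.26 FPKM, and could not be ordered beyond their spread. The wide spread of Ddit4 also overlapped that of Rheb and that of Sesn2. In null THY1+ uSPG Ddit4 had the lowest mean of the 10 at 4.09 ± 1.23 FPKM. Its spread overlapped that of Ddit4l at 5.05 ± 1.29 FPKM, Sesn2 at 5.20 ± 1.09 FPKM and Rptor at 5.46 ± 1.23 FPKM.

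Within groups the members did not vary independently. In the Zbtb16 table replicate 3 was the lowest library in 4 of 4 groups for Ddit4, Sesn2, Tsc2 and Mtor, whereas it was the highest in 3 of 4 groups for Rheb, Eif4ebp1 and Rps6kb1. Over the 12 libraries, deviations from the group means correlated at r = 0.99 between Tsc2 and Mtor, at 0.98 between Sesn2 and Mtor and at 0.89 between Ddit4 and Sesn2. They correlated at -0.93 between Tsc2 and Rheb and at -0.69 between Ddit4 and Eif4ebp1. These values are descriptions over 12 libraries, in which 4 libraries carry each replicate number.

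Across the 12 Zbtb16 libraries the 4 genes with the pattern most like that of Ddit4, among 16523 genes at a mean of 1 FPKM or more, were Foxo6 (r = 0.96), Sgsm2 (0.93), Zfp36l2 (0.92) and Ptplb (0.92). For Ddit4l they were Txndc15 (0.99), Appl2 (0.98), Trub1 (0.98) and Lrrk2 (0.98), and for Sesn2 they were Pitpnm1, Per1, Zfp36l2 and Acsf2 (all 0.96). Zfp36l2, an mRNA decay factor, was near both Ddit4 and Sesn2, whose own correlation over the 12 libraries was 0.88. Foxo6 belongs to the FOXO transcription factors, and Per1 is a circadian repressor that glucocorticoids induce. These correlations are descriptions over libraries of 4 groups, so they include the differences between groups.

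The surrounding pathway was read from 8 lists with 101 genes that the members do not belong to. In null THY1+ uSPG, 1 of the 2 genes in the list of TSC complex and Rheb relatives was called: Tbc1d7, the third subunit of the TSC complex, rose from a mean of 14.2 to 21.8 FPKM (log2 change 0.62, SE 0.10, adjusted p of limma 0.0063). Of 17 PI3K-AKT and AMPK inputs, 2 fell and none rose. Inpp4b, a phosphoinositide phosphatase, fell from 3.49 to 1.91 FPKM (log2 change -0.84, SE 0.18, adjusted p of limma 0.0215), and Pik3r1, the regulatory subunit of PI3 kinase, fell from 9.16 to 5.58 FPKM (-0.72, SE 0.17, adjusted p 0.0365). No gene was called among 9 mTOR complex partners, 26 genes of the amino acid branch or 16 mTORC1 effectors, whose median log2 differences were 0.14, 0.05 and 0.00 beside -0.03 for all genes.

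Genes induced by signals that are known to induce Ddit4 were listed separately. In null THY1+ uSPG 1 of 14 ATF4 targets was called, Asns (asparagine synthetase), with means of 8.89 FPKM in WT and 14.2 FPKM in the null (log2 change 0.67, SE 0.10, adjusted p of limma 0.00469). Of 10 hypoxia-induced genes 1 was called, Slc2a1 (the glucose transporter), which fell from 12.04 to 7.499 FPKM (-0.67, SE 0.14, adjusted p of limma 0.0193). Of 7 glucocorticoid-induced genes 1 was called, Sgk1, a kinase that mTORC2 activates, which rose from 6.18 to 12.9 FPKM (1.05, SE 0.10, adjusted p of limma 0.000434); the list's median was -0.45. In null KIT+ dSPG Sgk1 was the 1 call among the 101 genes (0.99%, beside 0.259% of all genes). Its level there rose from 2.88 to 5.48 FPKM (log2 change 0.91, adjusted p of limma 0.00502). In the interaction none of the 101 genes was called, where 0.0313% of all genes were.

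Between the fractions of WT mice 23 of the 101 pathway genes were called (22.8%), beside 21.2% of all genes, so the share was near the background. In null THY1+ uSPG 6 of the 101 were called (5.94%), beside 3.98% of all genes. Of the 26 genes of the amino acid branch 2 fell from THY1+ to KIT+ cells and none rose. Rragd, a Rag GTPase, fell from 27.8 to 7.24 FPKM (log2 change -1.96, adjusted p of limma 5.16e-06), and Sesn1, a paralog of Sesn2, from 30.0 to 13.6 FPKM (-1.14, adjusted p of limma 0.000157). Rhebl1, a relative of Rheb, fell from 9.32 to 3.64 FPKM (-1.37, adjusted p of limma 0.000188), in contrast to Rheb itself, which had the higher mean in KIT+ cells.
Among PI3K-AKT and AMPK inputs 4 fell and 1 rose: Inpp4b, from 3.49 to 0.206 FPKM (-3.57), Pik3ca (-0.96), Pik3r1 (-0.86) and Prkab1 (-0.75) fell, and Prkag2 rose (0.60). Among 16 mTORC1 effectors Grb10, an adaptor that mTORC1 phosphorylates, rose from 14.4 to 23.7 FPKM (log2 change 0.71), and Tfe3 (-0.63) and Larp1 (-0.59) fell. Of the 7 glucocorticoid-induced genes 4 fell and none rose, namely Dusp1 (-1.23), Sgk1 (-1.08), Cdkn1c (-0.89) and Tsc22d3 (-0.59). Of the ATF4 targets, Asns rose (0.72) and Atf3 (-3.20) and Trib3 (-0.99) fell, and of the hypoxia-induced genes, Bnip3 rose (0.96) and Pdk1 (-1.61) and Slc2a1 (-1.09) fell. The macrophage and Leydig cell markers changed with the fraction as given above, and their part in these differences was not tested.

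Between the fractions of null mice 20 of the 101 pathway genes were called (19.8%), beside 29.2% of all genes. Rhebl1 (log2 change -1.78), Rragd (-1.76), Inpp4b (-2.51), Pik3ca (-0.87) and Slc2a1 (-0.65) fell from THY1+ to KIT+ cells, as did Rictor (-0.70), the defining subunit of mTORC2, Wdr59 (-0.64), Sgk1 (-1.22), Tsc22d3 (-0.72) and Pdk1 (-1.43). Akt1, the kinase upstream of the TSC complex, rose from 19.9 to 42.1 FPKM (1.09, adjusted p of limma 0.000577), and Grb10 (1.16), Vegfa (1.05) and Fkbp5 (0.92) rose with it. Atf4, the transcription factor behind the ATF4 list, rose from 80.5 to 140.01 FPKM (0.78, adjusted p of limma 0.00724), with Ddit3 (0.92) and Slc7a11 (1.52), while Atf3 (-2.21) and Trib3 (-1.31) fell. Somatic cell markers differed between these null fractions as given above, and their part in these differences was not tested.

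In the Sox3 table the genotype effect was averaged over both fractions, so that it does not depend on which WT label is right. Eif4ebp1 was the 1 member that passed the p threshold. In the 6 WT libraries it was at 73.5, 66.2 and 67.2 FPKM (labelled THY1+) and 72.2, 60.3 and 55.6 FPKM (labelled KIT+), and in the 6 cKO libraries at 50.8, 40.9 and 51.7 FPKM (labelled THY1+) and 46.5, 42.0 and 47.3 FPKM (labelled KIT+). Every cKO library lay below every WT library. The share of all genes without overlap is not given for any comparison of the Sox3 table, so such separations have no background beside them. The difference was -0.50 on the log2 scale (SE 0.09, 1.41-fold lower, adjusted p of limma 0.00382), below the 1.5-fold needed for a call. Under alternatives other than the replicate block and left-out libraries it was -0.50 to -0.46. The adjusted p of limma was then 0.00322 to 0.0565, so the p threshold was not met under all of them.

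Ddit4l was 1.64-fold higher in cKO libraries on average (log2 difference 0.71, SE 0.25), with an adjusted p of limma of 0.0608. It was called only with the replicate block or in some fits with 1 library left out. Rheb differed by -0.21 on the log2 scale (SE 0.08, adjusted p of limma 0.0685), and Ddit4 differed by -0.03 (SE 0.21, 95% confidence interval -0.49 to 0.42). No member was called (0 of 10, where 10.3% of all genes were). The other 6 members had differences between -0.02 and 0.16. Markers of other cell types moved in the same comparison. All 6 Leydig cell markers were higher in the cKO (4 called, median log2 difference 0.86), as were all 5 endothelial markers (2 called, 0.55), while all 5 germ cell markers were lower (none called, -0.35) and 4 of 5 markers of differentiating spermatogonia were lower (2 called, -0.54). Sertoli cell and peritubular and stromal markers had medians of 0.62 (2 of 5 called higher) and 0.47 (1 of 6 called higher). Their part in the Eif4ebp1 and Ddit4l values was not tested.
Of the 101 pathway genes 5 were called (4.95%), beside 10.3% of all genes, and 3 of the 5 had a mean of 1 FPKM or more in the higher group. Eef2k, a kinase that S6 kinase inhibits, fell (log2 change -0.59, adjusted p of limma 0.0183), Trib3, a pseudokinase induced by ATF4, fell (-0.99), and Atf3 rose (0.69).

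Groups with like sorting markers were then compared across the WT labels. Between cKO THY1+ libraries and WT libraries labelled KIT+, all of them high in Thy1, Eif4ebp1 was at 47.8 ± 5.99 and 62.7 ± 8.60 FPKM with no overlap (log2 difference -0.39, SE 0.12, adjusted p of limma 0.276), and Ddit4 was at 8.52 ± 2.01 and 10.9 ± 1.88 FPKM (-0.36, SE 0.29, adjusted p 0.609). Rheb also showed no overlap, at 12.3 ± 0.77 and 14.0 ± 0.89 FPKM (-0.18, SE 0.11, adjusted p of limma 0.482). No member was called, where 0.0707% of all genes were. No cell type marker was called either. Germ cell markers summed to 897 to 1053 FPKM in the cKO and 1077 to 1240 FPKM in WT, and those of differentiating spermatogonia to 161 to 169 and 195 to 232 FPKM. Endothelial markers summed to 20.5 to 34.1 and 13.5 to 16.8 FPKM, and peritubular and stromal markers to 135 to 255 and 92.3 to 126 FPKM. The part of these cells in the member differences was not tested. Between cKO KIT+ libraries and WT libraries labelled THY1+, all of them high in Kit, Eif4ebp1 fell from 69.0 ± 3.95 to 45.3 ± 2.88 FPKM, a log2 change of -0.61 (SE 0.12, 1.52-fold lower, adjusted p of limma 0.00667). It was the 1 call of 10 members, where 17.0% of all genes were called. The call sat at the edge of the 1.5-fold limit and was lost without WT labelled THY1+ replicate 1 (-0.56, adjusted p 0.0209), without cKO KIT+ replicate 2 (-0.55, adjusted p 0.0208) and in replicates 2 and 3 alone (-0.58, adjusted p 0.0659).

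In the same comparison Ddit4l was at 14.6, 9.91 and 12.2 FPKM in cKO KIT+ libraries and at 8.43, 6.50 and 3.53 FPKM in WT libraries labelled THY1+. The groups did not overlap, and the log2 difference was 1.05 (SE 0.36, 2.07-fold) with an adjusted p of limma of 0.0535. All 6 Leydig cell markers were higher in these cKO libraries (5 called), at sums of 2493 to 4941 FPKM against 1239 to 2004 FPKM. All 5 endothelial markers were higher (4 called), at 32.0 to 50.3 FPKM against 15.2 to 21.3 FPKM. All 5 germ cell markers were lower (1 called), at 641 to 867 FPKM against 1047 to 1165 FPKM. Of 5 markers of differentiating spermatogonia 3 were called lower, at sums of 194 to 248 FPKM against 356 to 415 FPKM. Peritubular and stromal markers summed to 103 to 157 FPKM against 36.5 to 71.8 FPKM (1 of 6 called higher). Sertoli cell markers summed to 120 to 182 FPKM against 65.6 to 82.1 FPKM (1 of 5 called higher), and 3 of 7 macrophage markers were called higher. Their part in the Eif4ebp1 and Ddit4l differences was not tested.

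Of the 101 pathway genes 13 were called in the same Kit-high comparison (12.9%), beside 17.0% of all genes. Among them, Pik3r1 (log2 change 0.78), Prkaa1 (0.60), Sesn1 (0.66), Fkbp5 (0.73) and Slc7a11 (1.85) rose in the cKO. Lamtor1 (-0.63) and Rragb (-0.65) of the amino acid branch fell, as did Eef2k (-0.70), Psat1 (-0.70) and Trib3 (-0.87). In the Thy1-high comparison no gene of the 8 lists was called.

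**Figure D4:**
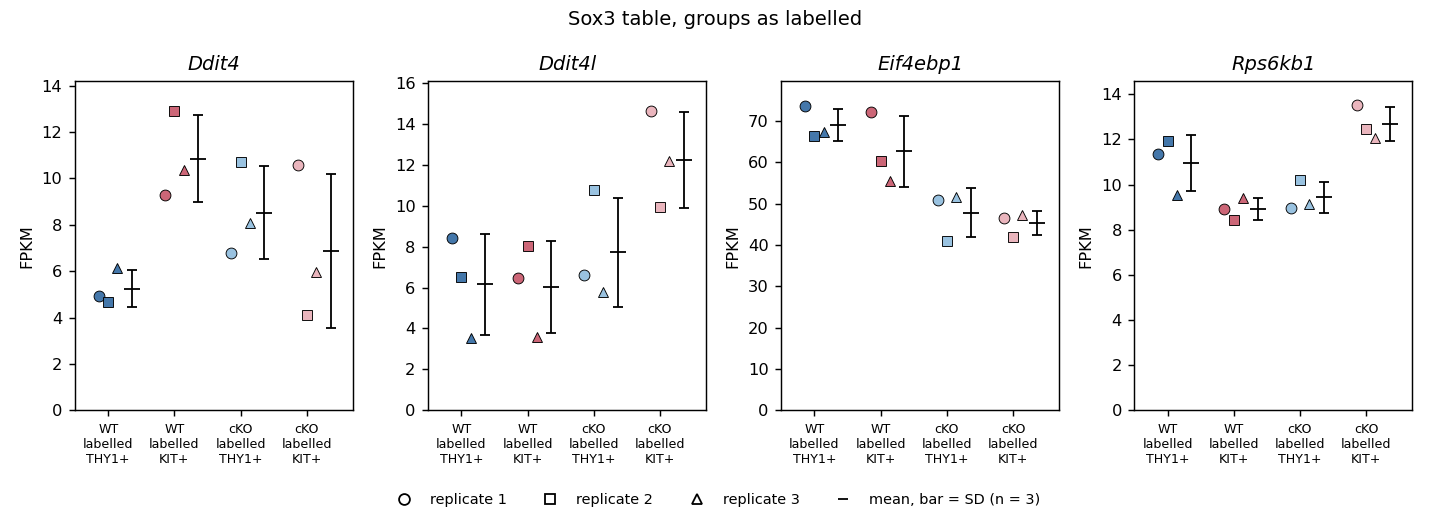
FPKM (y axes, from 0) of Ddit4, Ddit4l, Eif4ebp1 and Rps6kb1 in the 4 groups of the Sox3 table as labelled, with 1 symbol per library and the mean ± SD beside it. Eif4ebp1 lies at 40.9 to 51.7 FPKM in all cKO and 55.6 to 73.5 FPKM in all WT libraries, and the mean of Ddit4 is highest in WT libraries labelled KIT+, at 10.9 FPKM, although 1 cKO THY1+ and 1 cKO KIT+ library lie within their range.

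Within the cKO libraries the fractions followed the labels, and the members were compared between them. Rps6kb1 was at 8.96, 10.2 and 9.14 FPKM in THY1+ and 13.5, 12.5 and 12.1 FPKM in KIT+ libraries, with no overlap and a log2 difference of 0.43 (SE 0.11, adjusted p of limma 0.013). Rptor was lower in KIT+ libraries, at 3.805 to 5.90 FPKM against 6.17 to 7.91 FPKM, a difference of -0.58 (SE 0.22, adjusted p of limma 0.0709). Ddit4 was at 6.78, 10.7 and 8.06 FPKM in THY1+ and 10.6, 4.11 and 5.97 FPKM in KIT+ libraries, with overlapping groups and a difference of -0.39 (SE 0.29, adjusted p 0.349). Without cKO KIT+ replicate 1 this difference was -0.74 with an adjusted p of limma of 0.0426. Ddit4l differed by 0.69 (SE 0.36, adjusted p of limma 0.172). No member was called (0 of 10, where 22.7% of all genes were).
Of the 101 pathway genes 23 were called (22.8%), near the share of all genes. Rragd (log2 change -1.38), Sesn1 (-0.75), Rhebl1 (-1.12) and Inpp4b (-3.15) fell from THY1+ to KIT+ cKO libraries, as did the effectors Eif4ebp2 (-1.24), Tfe3 (-0.83), Lpin1 (-0.73) and Larp1 (-0.72), and Grb10 (1.17) and Akt1 (0.70) rose. Atf4 (0.71), Ddit3 (0.75), Asns (0.72), Slc7a11 (2.27), Bnip3 (0.80) and Fkbp5 (0.65) rose, and Atf3 (-2.85), Trib3 (-0.84), Pdk1 (-0.92), Slc2a1 (-0.83), Sgk1 (-0.91) and Tsc22d3 (-0.73) fell. The part of somatic cells in the fraction differences of members and pathway genes in these cKO libraries was not tested.

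With the libraries as labelled, the cKO and WT comparison called Rptor in THY1+ libraries (log2 change 0.65, SE 0.22, adjusted p of limma 0.0400, 1 call of 10 members where 29.1% of all genes were called) and Ddit4l in KIT+ libraries (1.07, SE 0.36, adjusted p of limma 0.0394, 1 of 10 where 25.1% were). Genotype and sorting markers cannot be told apart in these comparisons, since Thy1 and Kit differed between the libraries compared. Rptor lost its call without WT labelled THY1+ replicate 1 or 2 or cKO THY1+ replicate 2 or 3, at adjusted p of limma from 0.108 to 0.129. Ddit4l lost its call without WT labelled KIT+ replicate 1 or 3 or cKO KIT+ replicate 1 or 3, at adjusted p of limma from 0.0639 to 0.142.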

How the data were processed

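Total RNA of 24 libraries was ribosome-depleted and sequenced as stranded libraries; whether counting used strand is not given in the sources used here. The authors aligned reads with Novoalign to mm10, tested counts with DESeq2 and deposited FPKM values for each gene and library in 1 table per experiment. Read totals were estimated from the steps between low FPKM values, since counts were not used here. Each library pools the testes of 3 mice, so p-values measure the spread between isolations.

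FPKM + 0.1 was taken to log2, and limma 3.58.1 (R 4.3.3) was fitted over the 12 libraries of a table with 4 group means and trended, robust empirical Bayes variances. Genes with a mean of at least 0.1 FPKM were tested, 22374 in the Zbtb16 and 21212 in the Sox3 table, with Benjamini-Hochberg adjustment over all of them. A call asked for an adjusted p of at most 0.05 and at least 1.5-fold. Fold changes on this scale understate those of low genes. The fit was tested on simulated data. The 11 comparisons share groups, and the 2 tables were fitted separately.

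The members, 8 pathway lists (101 genes) and 9 marker lists (56 genes) were chosen with earlier results of these data known. All members were reported, with the called genes of the pathway lists at a mean of 1 FPKM or more in the higher group (not for the Sox3 comparisons as labelled, where genotype and fraction cannot be told apart) and, for Ddit4, Ddit4l and Sesn2, the 4 genes of highest Pearson correlation. Adgre1 was found in neither table and Wt1 was not found in the Sox3 table. Promoters are those of RefSeq for GRCm38.p6, matched for 9 of 10 members. Alternatives were another pseudocount, another filter, centred libraries, plain empirical Bayes, fits on 6 libraries, replicates 2 and 3 alone in the Sox3 table, a replicate block and each library left out.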

Additional observations from a re-analysis of the deposited data

How the results depend on the processing

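The alternatives changed the pseudocount, the filter, the centring of libraries, the empirical Bayes settings, the samples in the fit and the replicate block. Over 31 member changes followed through them, 442 of 483 values kept their direction and side of the threshold. Most of these changes were not called in the main fit, so for them this means only that they stayed uncalled. Of the other values, 18 lost a call, 13 gained one and 10 turned their sign. Genes called in null THY1+ uSPG numbered 890, against 565 with a pseudocount of 1, 468 at a mean FPKM of at least 1 and 295 to 820 with 1 library left out. In null KIT+ dSPG they numbered 58, against 25 with a pseudocount of 1, 2 in a fit on those 6 libraries alone and 25 to 37 with 1 library left out. Between fractions, a pseudocount of 1 gave 2883 of 4737 in WT and 4070 of 6532 in null mice, and a mean FPKM of at least 1 gave 3139 and 4332. The interaction gave 7, against 45 with a pseudocount of 1, 2 with centred libraries and 1 to 867 with 1 library left out. In the Sox3 table the averaged effect gave 2188, against 1024 with a pseudocount of 1 and 597 in replicates 2 and 3 alone. The Thy1-high comparison gave 15, against 9 at a mean FPKM of at least 1, 0 in replicates 2 and 3 alone, 1 in a fit on 6 libraries and 5 to 9 with 1 library left out. The Kit-high comparison gave 3608, against 987 in replicates 2 and 3 alone and 2327 to 3481 with 1 library left out. Replicates 2 and 3 alone gave 2473 of 4809 between the cKO fractions and 3283 of 5314 for KIT+ as labelled.

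Of the members, Ddit4l joined Eif4ebp1 in the Kit-high comparison, for 2 calls, with a pseudocount of 1 or a mean FPKM of at least 1, and none was called in replicates 2 and 3 alone. As labelled in THY1+, the count was 0 with a pseudocount of 1 or in replicates 2 and 3 alone, 2 (Ddit4 and Rptor) in a fit on 6 libraries and 0 to 4 with 1 library left out. As labelled in KIT+, it was 0 without trend and robust settings. Leaving out 1 library gave 0 to 1 member calls for the WT fractions, the averaged Sox3 effect, the Kit-high comparison, the cKO fractions and KIT+ as labelled. It also turned the sign of 4 small differences: Ddit4 in null KIT+ dSPG (-0.12 to 0.49), Ddit4 between null fractions (-0.076 to 0.48), Ddit4l between WT fractions (-0.30 to 0.32) and Ddit4 in the averaged Sox3 effect (-0.21 to 0.12). For Ddit4 in null THY1+ uSPG, leaving out 1 library gave -1.50 to -1.04 with adjusted p of limma from 0.0624 to 0.231.

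The replicate numbers were not taken as pairing, since the labels do not say what they share. In the Zbtb16 table, deviations of same-numbered libraries correlated at a mean r of 0.33 (18 pairs, -0.03 to 0.52). Those of libraries with other numbers correlated at a mean of -0.16. In the Sox3 table these means were 0.15 (18 pairs, -0.12 to 0.35) and -0.07, and depth there also went with the replicate number. As a hint from the data, 11 of 12 and 9 of 12 libraries correlated best with their own number. With a replicate block, genes called were 1980 in null THY1+ uSPG, 513 in null KIT+ dSPG, 2756 for the interaction and 29 in the Thy1-high comparison. Members called with the block were 1 in null THY1+ uSPG (Ddit4, adjusted p of limma 0.00797), 3 for the interaction (Ddit4 0.0245, Ddit4l 0.0402 and Sesn2 0.0276), 1 for the averaged Sox3 effect (Ddit4l, 0.0215) and 2 in the Kit-high comparison.

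The Sesn2 difference in null THY1+ uSPG (-0.580, SE 0.25) missed the p threshold and also lay just under the 1.5-fold limit (0.585 on the log2 scale). A library that was left out leaves 2 in its group.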
